A study of Mus musculus with 4 samples.

Results

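A total of 157 of 39009 barcodes in the 4 single-cell libraries carried the transcript profile used here to define plasmacytoid dendritic-like cells (pDC-like cells). They were found among B220+IgD- cells sorted from the spleens of mice 10 days after an injection of sheep red blood cells (SRBC). A barcode was counted when the deposited cell table did not list it, when genes of the mitochondrial genome gave under 8% of its unique molecular identifiers (UMIs, each standing for 1 captured transcript), and when it held at least 2 UMIs of Siglech, 0 UMIs over Cd3e, Cd3d and Cd3g, and at most 2 UMIs over Cd79a and Cd79b. Measured values of these genes therefore chose the cells, and Siglech, the Cd3 genes and the Cd79 genes are given below as a description only. WT held 24 of the 157 cells, C held 43, K held 36 and CK held 54.

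Plasmacytoid dendritic cells are rare cells of blood, bone marrow and lymphoid organs that sense viral RNA and DNA in endosomes through TLR7 and TLR9 and can secrete large amounts of type I interferon. They arise under the E protein TCF4 with RUNX2, BCL11A and IRF8, and they have the look of antibody-secreting cells, with a broad endoplasmic reticulum. Mouse plasmacytoid dendritic cells carry B220 on their surface, which is the marker used for the sort, and SIGLEC-H and BST2 are the proteins by which they are usually recognized.

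All mice were females at 8 weeks on the C57BL/6J background and carried the Cγ1-cre allele (Cγ1-cre/+), in which the recombinase is expressed from the Ighg1 locus once its germline transcript is induced, mainly in germinal center (GC) B cells. WT had no floxed allele, C was Crebbp fl/+ (C_het_KO), K was Kmt2d fl/+ (K_het_KO) and CK carried both floxed alleles (CK_het_DKO). All mice received SRBC, which induce GC. Each genotype was 1 mouse and 1 library, so no difference between genotypes below has a replicate check and none was tested. The cre driver is not directed at dendritic cells, and the libraries count 3' ends that can lie outside the deleted exons, so whether pDC-like cells had lost an allele was not measured.

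Libraries held 8071 to 12852 barcodes and 33270825 to 39803865 UMIs, and 31718 barcodes lay under the mitochondrial limit. The sums over pDC-like cells were 110243, 140921, 144670 and 158470 UMIs (WT, C, K and CK in turn), so 1 UMI stood for 6.31 to 9.07 CPM, the usual scaling of counts to a common total, taken here over all UMIs of the same cells in the same library. Their median depth was 4717.5, 3442, 4130 and 2988 UMIs per cell, in the same order. As comparators served 11212 unannotated barcodes with at least 3 Cd79 UMIs and 0 Cd3 UMIs (B cells). A further 8046 held at least 2 Cd3 UMIs and at most 2 Cd79 UMIs (T cells). All comparators had 0 Siglech UMIs. Median depth was 1363 to 2721 UMIs in B cells and 1984.5 to 3281.5 in T cells. Pairs of libraries shared 17 to 31 barcode sequences, and 2 of the 157 pDC-like barcodes also occurred in another library, where they were not pDC-like cells.

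The label was checked with the other 3 genes by which it was given. Bst2 was detected in 157 of the 157 cells, Irf8 in 156 and Tcf4 in 153, and 152 cells held all 3 transcripts. The remaining 5 cells held 2 of the 3. Free RNA can give a UMI in any droplet. Among T cells 24.1% had a Bst2 UMI and 1.80% a Tcf4 UMI, and among B cells 15.8% had a Bst2 UMI. Of the 11212 B cells, 4196 had a Tcf4 UMI, 5484 an Irf8 UMI and 520 all 3 transcripts. A single UMI of Tcf4 or Irf8 thus does not set pDC-like cells apart from B cells. How much of these detections is background was not tested. The median depth over all pDC-like cells was 3479 UMIs and that over all T cells 2434.5. Markers of the class were thus present cell by cell, and not only in the sums.

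At the Siglech threshold, 22 cells had exactly 2 UMIs. All 22 held Bst2, Tcf4, Irf8 and Tyrobp, and 20 held Cox6a2, with Bst2 at 5401 CPM and Cox6a2 at 1457 CPM over their sum. Just outside were 8 barcodes with 1 Siglech UMI that met the rest of the rule. Bst2 was detected in 8 of them, Tcf4 in 6, Irf8 in 6 and Cox6a2 in 1, with Bst2 at 3419 CPM and Cox6a2 at 282 CPM. Siglech (ENSMUSG00000051504, chr7:55768178-55778925 in GRCm38) reached medians of 8.5, 5, 6 and 4 UMIs per cell in these libraries. Among the 9804 annotated GC B cells, 8 had a Siglech UMI.

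The first question was how pDC-like cells differ in expression from the B and T cells of the same libraries. UMIs were summed per library and class, and each comparison rested on 4 sums against 4 with the library as a block (edgeR's quasi-likelihood test with Benjamini-Hochberg adjustment over all genes tested, called below 0.05). Of 9900 genes tested against B cells, 1484 (15%) were higher and 2347 (23.7%) were lower in pDC-like cells. Of 9337 tested against T cells, 1387 (14.9%) were higher and 1787 (19.1%) were lower. Both comparisons share the sums of the pDC-like cells, and both count neither the genes of the rule nor mitochondrial genes. With cells thinned to 2000 UMIs 929 were higher than in B cells and 871 higher than in T cells. The median log2 fold change over all genes tested was -0.24 against B cells and -0.18 against T cells.

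Bst2 (chr8:71534255-71537456), which encodes tetherin and the antigen PDCA-1, was at 6105 CPM in WT and 5918, 5999.9 and 5402 CPM in C, K and CK. B cells held 39.7 to 59.5 CPM and T cells 108 to 131 CPM, so that the groups were far apart in every library. The log2 fold change was 6.71 ± 0.10 (SE) against B cells and 5.41 ± 0.08 against T cells. Tcf4 was at 1587 CPM in WT and 1093, 1051 and 1407 CPM in C, K and CK, against 141 to 171 CPM in B cells and 5.79 to 7.59 CPM in T cells (log2 fold changes 2.89 ± 0.10 and 7.4 ± 0.12). B cells thus carried an intermediate level of Tcf4. Irf8 (chr8:120736358-120756694), a factor needed for several dendritic lineages and also expressed by GC B cells, was at 2921 CPM in WT and 2207, 2634 and 2007 CPM in C, K and CK, and its log2 fold changes were 2.97 ± 0.09 and 6.71 ± 0.10. The 3 markers were higher against both cell types.

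**Figure D1:**
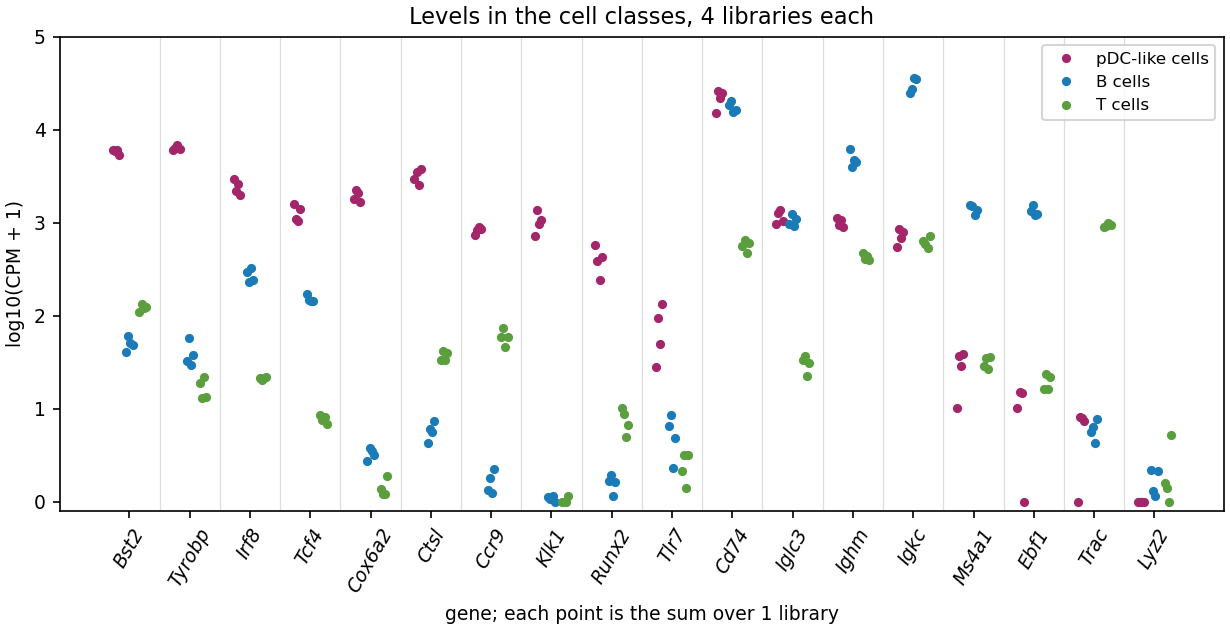
Level of 18 genes (horizontal axis) in pDC-like, B and T cells as log10(CPM + 1) on the vertical axis, with 1 point per library and class. The 4 points of pDC-like cells lie above those of both other classes from Bst2 to Tlr7, those of Cd74 and Iglc3 overlap with B cells, and those of Ms4a1, Ebf1 and Trac, markers of B and T cells, lie far below the class they mark.

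Of 10 pDC transcription factors, 7 were higher and 1 was lower than in B cells (median log2 fold change 1.37), and 8 were higher and 2 were lower than in T cells (median 5.08). Runx2, which acts in the maturation and egress of pDC, was at 571 CPM in WT and 383, 242 and 423 CPM in C, K and CK, against 0.154 to 0.947 CPM in B cells and 3.90 to 9.11 CPM in T cells. The groups did not overlap, and the log2 fold changes were 9.17 ± 0.30 and 5.76 ± 0.20. Bcl11a and Zeb2, a pair of further factors of the lineage, were higher than in B cells by 1.12 and 1.97 and higher than in T cells by 6.57 and 5.54 on the log2 scale. Spib, an Ets factor of pDC and of B cells, stood at 135 to 189 CPM in pDC-like cells and 153 to 184 CPM in B cells and was not called, whereas against T cells it was higher by 4.62 on the log2 scale. The E protein Tcf3, a driver of the B cell program, was lower than in B cells (-2.50 ± 0.23). Ikzf1 was not called against B cells. Lower than in T cells were Ikzf1 and Tcf3, of which the call of Tcf3 is lost without C, K or CK (adjusted p of 0.0945, 0.122 and 0.0837 by edgeR's quasi-likelihood test with Benjamini-Hochberg adjustment). B cells thus shared part of this list with pDC-like cells, while T cells lacked most of it.

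Of 16 genes for surface proteins of pDC, 15 were higher than in B cells and Ptprc, which encodes CD45, was not called (median 6.92). Against T cells 14 were higher and 2, Cd8a and Ptprc, were lower (median 4.30). Ccr9, the receptor by which pDC home to the gut, was at 744 CPM in WT and 830.3, 892 and 858 CPM in C, K and CK in pDC-like cells, at 0.231 to 1.22 CPM in B cells and at 45.3 to 72.8 CPM in T cells (10.18 ± 0.22 and 3.67 ± 0.11). Ly6d was at 4517 CPM in WT and 5691, 5723 and 5042 CPM in C, K and CK, and B cells were nearest to it with 1344 to 2159 CPM (log2 fold change 1.49 ± 0.09). For Ly6c2, which is used together with Siglec-H to recognize pDC, T cells were nearest (2.14 ± 0.09). The inhibitory receptor genes Lair1 and Lag3 reached 559.9 to 844 and 209 to 355 CPM, and in B cells they stayed at 1.31 to 3.57 and 0.154 to 0.813 CPM. Reads of Ly6 genes, which have close copies, can be split or lost in counting.

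All 16 other genes known as high in mouse pDC were higher against both cell types (medians 6.0 and 6.84). The gene lists were chosen with earlier results of these data known, so these counts are a description and no independent check of the label. Cox6a2 and Gm21762 of this list are also among the genes named below for standing out most. Tyrobp, the adaptor through which SIGLEC-H signals, was at 6077 CPM in WT and 6401, 6857 and 6184 CPM in C, K and CK, and the log2 fold changes were 7.22 ± 0.11 against B cells and 8.49 ± 0.10 against T cells. Cox6a2 (chr7:128205435-128206387), the muscle form of a subunit of cytochrome c oxidase, was at 1814 CPM in WT and 2257, 2074 and 1653 CPM in C, K and CK, against 1.72 to 2.77 CPM in B cells and 0.195 to 0.868 CPM in T cells (9.55 ± 0.13 and 11.75 ± 0.15). It was detected in 141 of 157 pDC-like cells, and in 0.598% of B and 0.124% of T cells. The lysosomal protease gene Ctsl was at 2948 CPM in WT and 3506, 2571 and 3742 CPM in C, K and CK, and Plac8 and Rnase6 reached 2379 to 3069 and 1659 to 1893 CPM. None of these levels overlapped with those of B or T cells in any library.

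The 15 genes that stood out most against both cell types were chosen by the smaller of both log2 fold changes, from 432 genes with at least 100 CPM that were higher in 4 of 4 libraries. They were Klk1, Pir, Smim5, Klra17, Clec10a, Atp2a1, Paqr5, Cd300c, Tbc1d8, Gm21762, Sh3bgr, Cd209a, Cd209d, Csf2rb2 and Cox6a2, and being chosen by this contrast, their folds are a description. Klk1 (chr7:44225360-44229618), a tissue kallikrein, was at 717 CPM in WT and 1355, 961 and 1073 CPM in C, K and CK in pDC-like cells, with only 5 UMIs in all B cells and 1 in all T cells. Smim5, a small membrane protein gene, was at 489.8 CPM in WT and 667, 574 and 524 CPM in C, K and CK. Cd300c, an activating receptor of myeloid and plasmacytoid cells, was at 236 CPM in WT and 255, 263 and 284 CPM in C, K and CK, and Klra17 (138 to 213 CPM) belongs to the Ly49 receptor family. The lectin genes Cd209d and Cd209a were at 625 to 899 and 234 to 574 CPM, and Cd209a, with 0 UMIs in T cells, was at least 2910.3-fold higher than there when 3 counts over the group are taken as the floor. With the same floor, Pir was at least 1033-fold and Csf2rb2 at least 791-fold higher than in T cells. Cd209a and Cd209d, Csf2rb2 and Csf2rb, and the Ly49 genes have near-identical copies, so that the split of reads between copies is uncertain.

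**Figure D2:**
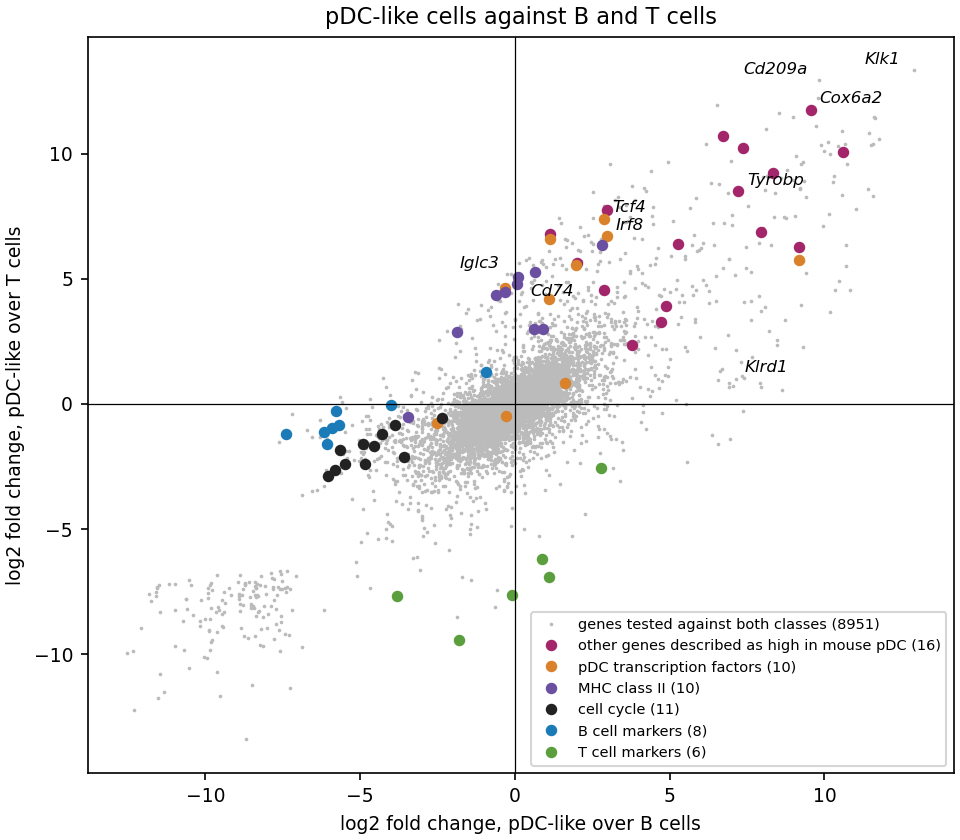
Log2 fold change of pDC-like cells against B cells (horizontal axis) and against T cells (vertical axis), 1 point per gene tested in both, with 6 of the lists in colour and some genes named. Klk1, Cox6a2 and Cd209a lie at the upper right, and cell cycle genes below 0 on both axes. Iglc3 lies near 0 against B cells and above 0 against T cells. MHC class II genes lie on both sides of 0 against B cells and mostly above 0 against T cells. Points in the separate group at the lower left belong to genes with 0 UMIs in pDC-like cells, whose fitted folds depend on the prior count, and both axes share the sums of the pDC-like cells.

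Promoter windows of 3 genes are printed to show the E-box, the motif CANNTG that E proteins such as TCF4 bind. Klk1 and Cd300c had few or no UMIs in B and T cells, while the absence of Siglech there was set by the choice of those cells. The windows run from 250 bases before to 50 bases after the transcript start in RefSeq on GRCm38.p6, 5′ to 3′ on the strand of the gene, and matches to CANNTG, which reads the same on both strands, are in capitals. Siglech lies on the plus strand (chr7:55767934-55768233, matches starting at bases 16, 195 and 231), Klk1 on the plus strand (chr7:44225110-44225409, at 54, 164 and 251) and Cd300c on the minus strand (chr11:114960458-114960757, at 84, 120, 184 and 192).
Siglech: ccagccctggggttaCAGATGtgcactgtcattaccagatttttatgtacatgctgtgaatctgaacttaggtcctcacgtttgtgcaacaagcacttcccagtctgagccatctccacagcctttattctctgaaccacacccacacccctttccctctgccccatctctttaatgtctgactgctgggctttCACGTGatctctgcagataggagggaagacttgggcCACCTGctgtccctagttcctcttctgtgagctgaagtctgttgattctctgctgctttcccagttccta
Klk1: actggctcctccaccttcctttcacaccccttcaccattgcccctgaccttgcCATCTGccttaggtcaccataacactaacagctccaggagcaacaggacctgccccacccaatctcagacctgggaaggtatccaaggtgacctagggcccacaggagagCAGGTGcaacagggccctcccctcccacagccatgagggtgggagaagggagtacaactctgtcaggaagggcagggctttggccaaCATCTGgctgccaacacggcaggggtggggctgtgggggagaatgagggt
Cd300c: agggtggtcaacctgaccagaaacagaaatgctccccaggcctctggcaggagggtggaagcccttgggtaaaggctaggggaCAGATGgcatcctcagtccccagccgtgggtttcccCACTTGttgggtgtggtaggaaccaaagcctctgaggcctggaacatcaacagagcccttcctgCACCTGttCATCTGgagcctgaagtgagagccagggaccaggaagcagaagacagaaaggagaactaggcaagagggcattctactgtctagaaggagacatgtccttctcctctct
Of the 15 genes named above, 10 had a window in the table, and each of their 11 windows held at least 1 CANNTG. The printed windows of Cd300c with 4 and Klk1 with 3 matches held the most, and the other windows of these genes held 1 or 2. Among all 32851 windows, 72.3% held at least 1, with a mean of 1.39, so the motif is common at this length and a match is a description of the letters only.

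For endosomal nucleic acid sensing, 7 of 16 genes tested were higher and 1 was lower than in B cells (median 0.54), and 8 were higher and 1 was lower than in T cells (median 1.42). Unc93b1, which escorts the Toll-like receptors to endosomes, was at 1134 CPM in WT and 1079, 1023 and 1117 CPM in C, K and CK, against 325 to 488 CPM in B cells and 16.8 to 23.7 CPM in T cells (1.24 ± 0.10 and 5.58 ± 0.11). Pld4, an endolysosomal exonuclease for single-stranded nucleic acids, was higher by 3.33 ± 0.11 and 8.24 ± 0.16 on the log2 scale, at 879.9 to 997 CPM. Its relative Pld3, the gene that was lower, was at 0 to 9.07 CPM, and its call against B cells is lost without C or K (adjusted p = 0.130 and 0.141 by edgeR's quasi-likelihood test with Benjamini-Hochberg adjustment). Tlr7 was at 27.2 CPM in WT and 92.3, 48.4 and 133 CPM in C, K and CK, which differed by more between libraries than the values of Unc93b1 did, and it was higher than in both B cells (3.95 ± 0.39) and T cells (5.49 ± 0.45). Tlr9 had 0 UMIs in pDC-like cells, which allows up to 5.41 CPM over the group (3 counts), and B cells held 0.616 to 1.12 CPM, so that Tlr9 was not measurable here. Irf7, the factor that drives interferon genes downstream of these receptors, was at 363 CPM in WT and 525, 263 and 416 CPM in C, K and CK and was higher by 3.89 and 2.69 on the log2 scale. Higher than in both cell types were Tlr7, Unc93b1, Cnpy3, Hsp90b1, Pld4 and Irf7, the kinase gene Irak1 was called higher against B cells and not against T cells, and Slc15a4 and Irf5 against T cells and not B cells. The signalling genes Myd88, Irak4, Traf6, Traf3 and Chuk were not called against either cell type.

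Interferon genes themselves were not detected. Of 26 genes for type I and III interferons, cytokines and chemokines, 21 had 0 UMIs in pDC-like cells, among them all the Ifna genes, Ifnb1, Ifnl2 and Ifnl3. Only 3 genes passed the filter on low counts against B cells, where 2 (Il12a and Ccl5) were lower, and 3 against T cells, where 1 (Ccl5) was lower. At this depth a level under 5.41 CPM would not have been seen. Of 10 genes for cytosolic sensing, 2 were higher and 1 was lower than in B cells, and 1 was higher and 2 were lower than in T cells. Ddx58, which encodes RIG-I, was at 0 to 6.31 CPM and lower than in B (-4.09 ± 0.85) and T cells (-4.72 ± 0.74), though its call against B cells is lost with annotated GC B cells as the comparator (adjusted p = 0.157 by edgeR's quasi-likelihood test with Benjamini-Hochberg adjustment).

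Of 21 interferon-stimulated genes tested against B cells, 15 were higher and 1 was lower (median 2.04), while against T cells 7 were higher and 4 were lower (median 0.58). Bst2 and Irf7 are on this list too. Trim30a was at 172 CPM in WT and 177, 235 and 239.8 CPM in C, K and CK and Stat2 at 71.0 to 88.3 CPM, and both were higher than in B cells (2.04 ± 0.19 and 1.77 ± 0.30) and T cells (1.46 ± 0.17 and 2.45 ± 0.32). Isg15 was at 90.7 CPM in WT and 170.3, 34.6 and 183 CPM in C, K and CK, with the lowest value in K, and was higher than in B cells (2.14 ± 0.25), whereas T cells held 79.2 to 111 CPM and the difference from them was not called. Rtp4 was at 0 to 9.07 CPM and lower than in T cells (-4.42 ± 0.79). Counts for the list therefore depended on the cell type compared. The receptor chains Ifnar1 and Ifnar2 were higher than in B cells (2.57 ± 0.19 and 3.98 ± 0.20) and T cells (1.73 ± 0.16 and 2.51 ± 0.16).

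Genes of the secretory pathway and the unfolded protein response were high. Against B cells 14 of 22 were higher and 3 were lower (median 0.78), and against T cells 19 of 21 tested were higher and 0 were lower (median 1.36). Sec61b, a subunit of the translocon, was at 1279 CPM in WT and 1483, 1334 and 1514 CPM in C, K and CK, against 556 to 653 CPM in B cells and 508 to 583 CPM in T cells (1.01 ± 0.09 and 1.16 ± 0.08). Ern1, which encodes the stress sensor IRE1, was higher by 3.89 ± 0.66 and 4.64 ± 0.70, and Herpud1, a part of the degradation machinery, by 1.13 ± 0.13 and 2.54 ± 0.13. Xbp1, the factor spliced by IRE1, was at 417 CPM in WT and 312, 394 and 309 CPM in C, K and CK, higher than in B (0.88 ± 0.13) and T cells (3.12 ± 0.16), and its call against B cells is lost when cells are held under 5% mitochondrial UMIs (adjusted p = 0.179 by edgeR's quasi-likelihood test with Benjamini-Hochberg adjustment). Mzb1, a chaperone of immunoglobulin assembly, stood between the cell types, lower than in B cells (-2.46 ± 0.12) and higher than in T cells (2.55 ± 0.15), and Derl3 was lower than in B cells (-4.21 ± 0.83). The B cells included cells with plasma cell transcripts, whose 7 markers summed to 3644 to 4834 CPM there and to 644 to 781 CPM in pDC-like cells.

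For MHC class II, 4 of 10 genes were higher and 4 were lower than in B cells (median 0.08), and 9 were higher and 0 were lower than in T cells (median 4.41). The invariant chain gene Cd74 was at 15130.2 CPM in WT and 25922, 22105 and 24812 CPM in C, K and CK, a span that overlapped with the 15619.6 to 20352 CPM of B cells, and it was not called against them. H2-DMb1, a chain of the peptide exchanger H2-DM, was at 317 to 532 CPM and higher than in B cells (2.82 ± 0.15), whereas H2-DMb2 was at 36.3 to 207 CPM and lower (-1.88 ± 0.15). These 2 genes are close copies, and their reads can be split between them. H2-Ob, a chain of the inhibitor H2-DO, was at 12.6 to 36.3 CPM against 171 to 222 CPM (-3.47 ± 0.28). The class II list summed to 21634 CPM in WT and 34714, 32239 and 32997 CPM in C, K and CK, against 21504 to 26736 CPM in B cells. WT lay within the span of B cells and the other 3 libraries lay above it. H2-Aa was higher than in B cells (0.65 ± 0.09), a call lost against annotated GC B cells (adjusted p = 0.0731 by edgeR's quasi-likelihood test with Benjamini-Hochberg adjustment). Of 5 genes for costimulation tested against B cells, 3 (Cd86, Cd40 and Cd83) were lower and 0 were higher (median -3.25), with Cd86 at 0 to 6.31 CPM in pDC-like cells and 29.4 to 46.2 CPM in B cells (-4.48 ± 0.78). Against T cells 3 of these genes were tested and 1 (Cd83) was lower.

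Cytokine receptors were high against both cell types, with 8 of 9 genes tested higher and 0 lower in each comparison (medians 2.47 and 2.51). Flt3, the receptor for the ligand that drives dendritic cell development, was at 118 CPM in WT and 99.3, 104 and 196 CPM in C, K and CK, against 18.1 to 23.7 CPM in B cells and 0.569 to 1.60 CPM in T cells (2.47 ± 0.25 and 6.48 ± 0.38). Csf2rb, the common beta chain, was higher by 4.15 ± 0.32 than in B cells and by 8.61 ± 0.48 than in T cells. Il7r was at 363 CPM in WT and 383, 187 and 404 CPM in C, K and CK, far above the 1.23 to 1.97 CPM of B cells (7.36 ± 0.28) and overlapping with T cells (278 to 395 CPM), against which it was not called. K lay below the span of T cells and CK above it. Csf1r had 0 UMIs.

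Homing receptors differed among themselves, with 5 of 11 higher and 3 lower than in B cells (median -0.59) and 4 of 10 higher and 4 lower than in T cells (median 0.09). Ccr2, which responds to inflammatory chemokines, was at 190.5 CPM in WT and 99.3, 200.5 and 69.4 CPM in C, K and CK and higher than in B cells (7.96 ± 0.42) and T cells (3.72 ± 0.28). The receptor genes S1pr1, for the exit from lymphoid tissue, and Cxcr5, for the place in follicles, were not found. S1pr4, also on the list, was detected, was not called against B cells and was lower than in T cells. S1pr1 had 0 UMIs in pDC-like cells, at least 10.7-fold below B cells and 27.7-fold below T cells, and the follicular receptor gene Cxcr5 had 0 UMIs, at least 7.48-fold and 6.60-fold below. Ccr7, the receptor for entry into T cell zones, was at 0 to 14.2 CPM and lower than in T cells (-4.57 ± 0.33). Ccr2 and the gut receptor Ccr9 were thus present, and Cxcr5 and S1pr1 were at 0.

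Adaptors and kinases downstream of receptors with an immunoreceptor tyrosine-based activation motif (ITAM) were 8 of 8 higher than in T cells (median 4.28). Against B cells 3 were higher (Tyrobp, Fcer1g and Pik3ap1) and 4 were lower (median -0.37). Blnk, an adaptor of B cell receptor signalling, was at 272 CPM in WT and 185, 339 and 278 CPM in C, K and CK, against 382 to 436 CPM in B cells and 13.7 to 18.6 CPM in T cells (-0.78 ± 0.13 and 3.86 ± 0.20). The kinase gene Btk was -1.74 ± 0.25 against B cells and 3.0 ± 0.48 against T cells, again between the levels of both.

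The 8 genes lowest against both cell types, from 282 with at least 100 CPM in both, were Hbb-bs, Gm8369, Cd2, Dusp2, Rgcc, Acp5, Smc4 and Cotl1, and their folds too are a description. Cd2, an adhesion receptor of lymphocytes, was at 0 to 6.91 CPM against 88.6 to 125 CPM in B cells and 352 to 431 CPM in T cells. The phosphatase gene Dusp2 was at 0 to 13.8 CPM against 230.2 to 245 and 140.1 to 155 CPM. Hbb-bs encodes a beta globin of red cells, was at 0 to 7.10 CPM in pDC-like cells and varied between libraries from 1.46 to 339 CPM in B cells and from 96.7 to 854 CPM in T cells. Its call against B cells is lost without the library block (adjusted p = 0.102 by edgeR's quasi-likelihood test with Benjamini-Hochberg adjustment). A UMI of 6 erythroid markers, Hbb-bs among them, was found in 1187 of 11212 B cells, 184 of 8046 T cells and 4 of 157 pDC-like cells. A single barcode held up to 3732 of these UMIs in B cells and up to 6671 in T cells. Few barcodes can thus weigh heavily on the sums of Hbb-bs, and their part in its folds was not tested.

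Cell cycle genes were low, with 0 of 11 higher and 11 lower than in B cells (median -4.86) and 0 higher and 7 lower than in T cells (median -1.85). Mki67 was at 27.2 CPM in WT and 0, 6.91 and 12.6 CPM in C, K and CK, against 285 to 617 CPM in B cells (-5.65 ± 0.28) and 15.03 to 53.7 CPM in T cells, and Stmn1 at 35.5 to 76.0 CPM (-4.56 ± 0.18 against B cells, -1.68 ± 0.22 against T cells). The list summed to 106 to 221 CPM in pDC-like cells and to 3152 to 4124 CPM in B cells, which hold unannotated GC cells. Of 9 immediate early genes tested, 6 were lower and 2, Jun and Btg2, were higher in each comparison. The call of Jun against B cells is lost without K or CK (adjusted p = 0.0643 and 0.132), and those of Btg2 against B and T cells without CK (adjusted p = 0.0789 and 0.224 by edgeR's quasi-likelihood test with Benjamini-Hochberg adjustment). The median was -1.76 against B cells and -2.25 against T cells, or -1.48 and -1.64 with genes at 0 set to their bound. Jund was at 245 CPM in WT and 220, 276 and 183 CPM in C, K and CK, lower by -1.76 ± 0.13 and -1.64 ± 0.12, and Junb was lower by -1.81 ± 0.30 and -2.43 ± 0.27.

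Markers of other cells were examined as whole lists. The 10 B cell markers summed to 118 to 170 CPM in pDC-like cells, 3572 to 4462 CPM in B cells and 108 to 128 CPM in T cells. The 10 T cell markers summed to 50.5 to 173 CPM, against 69.7 to 91.1 CPM in B cells and 6912 to 7307 CPM in T cells. No UMI of a B cell marker was present in 94 of the 157 cells, and none of a T cell marker in 114. Since the rule used Cd79 and Cd3 genes, these low sums partly restate it. In these lists, 10 of 10 B cell markers were lower than in B cells and 10 of 10 T cell markers lower than in T cells, where Bcl11b with 0 UMIs lay at least 62.1-fold below.

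Among 8 natural killer markers, only Klrd1 and Klrk1 were higher than in B cells, and 1 of 7 tested was higher and 5 were lower than in T cells. Klrd1, a chain of a lectin-like receptor, was at 363 CPM in WT and 461, 643 and 379 CPM in C, K and CK and higher than in B (7.15 ± 0.24) and T cells (1.01 ± 0.11), and it was detected in 120 of 157 cells. The defining genes Eomes, Prf1 and Klrb1c had 0 UMIs. Of 9 conventional dendritic markers, 3 of 5 tested were higher than in B cells, and these were Clec9a, Clec10a and Cd209a, while Zbtb46, Batf3, Xcr1 and Itgam had 0 UMIs. Clec9a, a receptor for dead cells, was at 136 CPM in WT and 121, 111 and 107 CPM in C, K and CK and was found in 46 of 157 cells (11.41 ± 0.58 against B cells and 8.60 ± 0.49 against T cells). The factor gene Id2 was at 0 to 6.91 CPM and lower than in T cells. The list summed to 568 to 899 CPM in pDC-like cells, 14.8 to 17.6 CPM in B cells and 70.4 to 90.9 CPM in T cells. Of 10 monocyte and macrophage markers, Cd68, an endolysosomal glycoprotein, was higher (6.41 ± 0.26 and 7.24 ± 0.26) at 254 to 387 CPM, and 8 had 0 UMIs. All 7 neutrophil and all 5 basophil and mast cell markers had 0 UMIs.

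Immunoglobulin constant regions were mostly lower than in B cells and mostly not called against T cells. Of 12 genes, 11 were lower than in B cells (median -5.62, or -5.53 with Ighg2c at its bound) and only Iglc3, a lambda light chain constant gene (chr16:19065230-19065681), was not called. Against T cells, where 11 were tested, Ighm, Iglc2 and Iglc3 were higher and Jchain was lower (median 0.06). The call of Iglc2 rested on 45.4 to 107 CPM and is lost, with a log2 fold change of -0.59, when cells are held under 5% mitochondrial UMIs (adjusted p = 0.564 by edgeR's quasi-likelihood test with Benjamini-Hochberg adjustment). Iglc3 was at 971 CPM in WT and 1277, 1376 and 1041 CPM in C, K and CK, which overlapped with the 925 to 1231 CPM of B cells and lay above the 21.7 to 35.4 CPM of T cells. The difference from B cells was -0.04 ± 0.09 (SE) on the log2 scale (adjusted p = 0.802 by edgeR's quasi-likelihood test with Benjamini-Hochberg adjustment), and that from T cells was 5.11 ± 0.10. The sign against B cells turns under several settings, and against annotated GC B cells Iglc3 was higher by 0.32 (adjusted p = 0.00144 by the same test). Igkc, the kappa constant gene, was at 544 CPM in WT and 859, 691 and 801 CPM in C, K and CK, a span that overlapped with the 536 to 711 CPM of T cells and lay far below the B cells (-5.59 ± 0.13).

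UMIs of each gene were also set against those of Igkc in the same cells. The ratio of Iglc3 to Igkc was 1.78 in WT (95% interval 1.29 to 2.49), 1.49 in C (interval 1.17 to 1.89), 1.99 in K (interval 1.56 to 2.56) and 1.30 in CK (interval 1.02 to 1.65). In the B cells it was 0.0389, 0.0451, 0.0259 and 0.0308, and in T cells 0.0517, 0.0601, 0.0404 and 0.0417 in the same order. The intervals of pDC-like cells lay above both other types in 4 of 4 libraries, and the part of free RNA in these ratios was not tested. The constant regions of Iglc2 and Iglc3 are close copies. Iglc1 and Iglc2 had ratios in pDC-like cells of 0.066 to 0.12 and 0.083 to 0.134, nearer to those of both other types than Iglc3 was. In B cells these ratios were 0.063 to 0.087 and 0.033 to 0.069, and in T cells 0.087 to 0.115 and 0.045 to 0.085. After thinning of each cell to 2000 UMIs, Iglc3 was found in 74.0% to 85.4% of pDC-like cells, 65.8% to 79.2% of B cells and 4.41% to 7.02% of T cells, while Igkc was found in 54.2% to 80.5%, 98.8% to 99.1% and 63.3% to 70.3%. In the 71 pDC-like cells with 0 Cd79 UMIs, Iglc3 was at 1146 CPM and in the other 86 at 1196 CPM. Ighm, the constant gene of IgM, was at 1116 CPM in WT and 937, 1058 and 902 CPM in C, K and CK, lower than in B cells (-2.45 ± 0.10) and higher than in T cells (1.05 ± 0.09), with a ratio to Igkc of 1.09 to 2.05 against 0.127 to 0.250 in B cells and 0.556 to 0.814 in T cells.

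**Figure D3:**
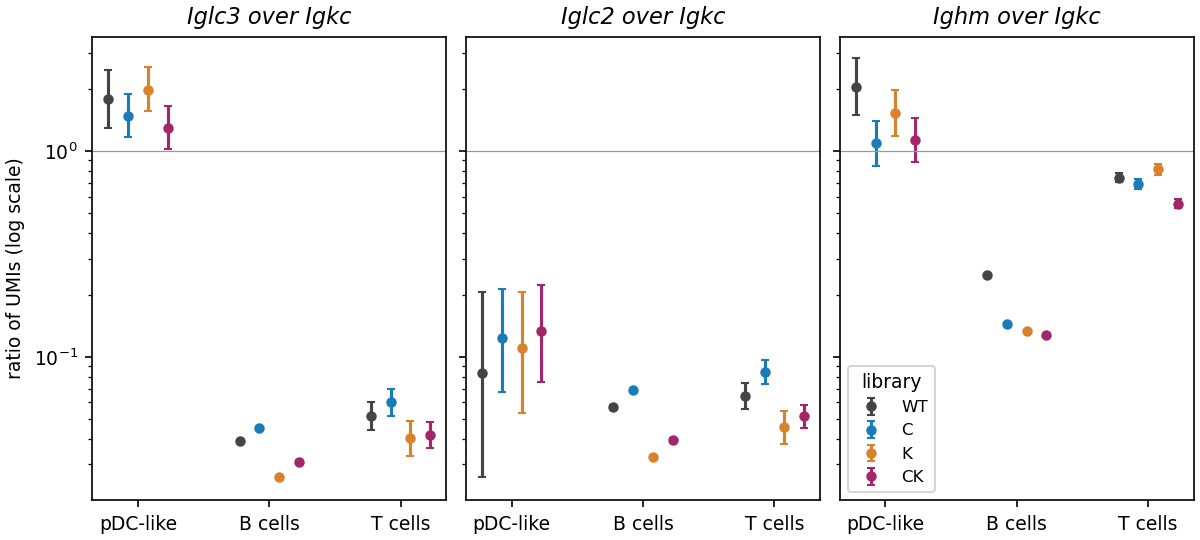
Ratio of UMIs of Iglc3, Iglc2 and Ighm to those of Igkc on a log axis, with 1 point per library and cell class and bars for the 95% interval of counting error. The Iglc3 points of pDC-like cells lie between 1.30 and 1.99 and those of B and T cells under 0.1.

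The next question was how much pDC-like cells varied among themselves. In 150 cells thinned to 2000 UMIs (24, 41, 35 and 50 from WT, C, K and CK, with 7 shallower cells left out), the ratio of variance to mean had a median of 1.03 over 1541 genes with a mean of at least 0.2 UMIs, near the 1 of counting error alone. The 10 highest were Cd74 (11.8), Malat1 (6.63), Ly6a (4.67), Isg15 (4.19), Actb (3.62), Gm42418 (3.55), H2-Aa (3.39), Ifi27l2a (3.13), Cd8a (3.11) and Klk1 (3.04). The ratios pool libraries whose means differ, and some differed between libraries as well. That of Isg15 was 2.08 in WT and 6.59, 0.912 and 2.95 in C, K and CK, that of Cd8a was 0.957 in WT and 3.22, 4.26 and 2.14 in the others, and that of Cd74 was 9.09 to 12.3 in all 4. For Gm42418 the ratio was 11.3 in WT, where 1 cell held 28 of its UMIs and the median cell 1, and 0.886 to 1.28 in the other libraries.

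**Figure D4:**
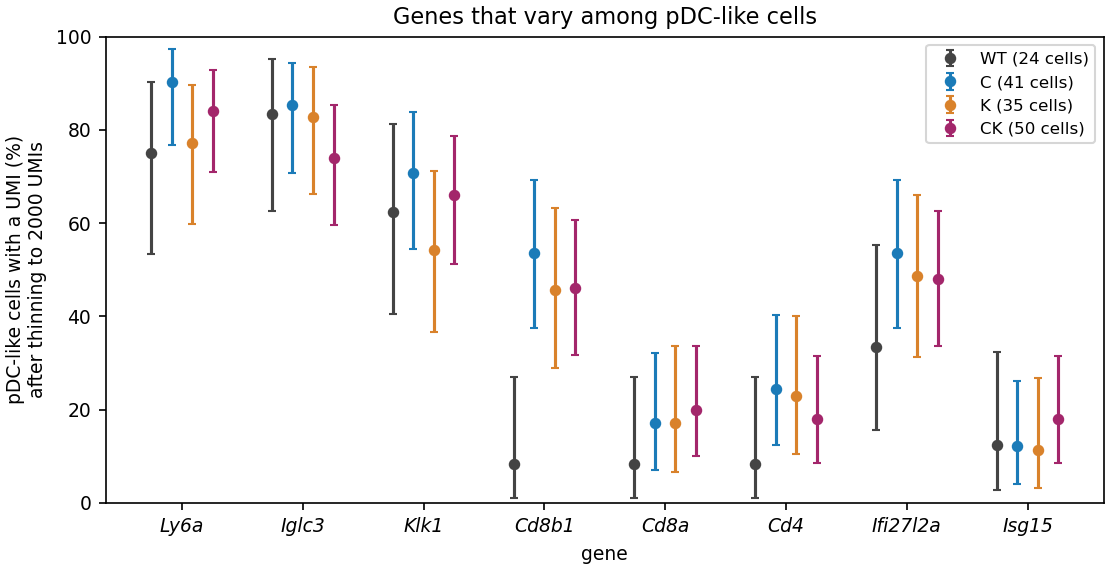
Share of pDC-like cells with a UMI of 8 genes (horizontal axis) after thinning to 2000 UMIs, in percent (vertical axis), with 1 point per library and bars for the exact 95% interval of counting error. Cd8b1 is at 8.33% in WT and at 45.7% to 53.7% in the other libraries, and the intervals of the libraries overlap for the other 7 genes.

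Isg15, a ubiquitin-like protein induced by interferon, was found in 23 of the 157 cells, of which 3, 5, 4 and 11 came from WT, C, K and CK. At equal depth it was present in 12.5%, 12.2%, 11.4% and 18.0% of cells, and in T cells in 10.2%, 11.2%, 12.4% and 12.9%, so that at this depth it cannot be told apart from their level. A sum of 20 other interferon-stimulated genes was at 4138 CPM in the 23 cells with Isg15 and at 1367 CPM in the 134 cells without it. The median depth was 3308 UMIs in the former and 3493 in the latter. Over the sum, the other genes of the list were thus higher in the minority of cells with Isg15, a description on the same cells that was not tested.

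CD4 and CD8 are known on subsets of mouse dendritic cells, and both were examined because the rule left out only Cd3. Cd8a was found in 38 of 157 cells, Cd8b1 in 80 and Cd4 in 50. Cd8a and Cd8b1 were both found in 28 cells, Cd8b1 without Cd8a in 52, Cd8a without Cd8b1 in 10 and neither in 67. In B cells, which should lack them, a UMI of Cd8a was found in 0.455% and one of Cd4 in 0.187% of cells. The 10 T cell markers summed to 97.0 CPM in the 80 cells with Cd8b1 and to 97.8 CPM in the 77 without it, while Cd8a was at 241 and 72.5 CPM. T cell markers were no higher in the cells with Cd8b1, but the rule had already left out barcodes with Cd3 UMIs. The comparison therefore says little of the source of Cd8b1, which was not tested. Over the 4 libraries Cd8b1 was higher than in B cells (6.96 ± 0.25) and lower than in T cells (-1.40 ± 0.10), and Cd4 was at 72.6 CPM in WT and 149, 145 and 107 CPM in C, K and CK against 45.4 to 70.2 CPM in T cells. The call of Cd4 against T cells (0.83 ± 0.20) is lost without C (adjusted p = 0.0507 by edgeR's quasi-likelihood test with Benjamini-Hochberg adjustment).

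The study compared genotypes, and the share of pDC-like cells was therefore taken per library, over all barcodes under the mitochondrial limit. For WT it was 0.414% (24 of 5800, exact Clopper-Pearson 95% interval 0.265 to 0.615%) and for C 0.513% (43 of 8387, interval 0.371 to 0.690%). For K it was 0.523% (36 of 6881, interval 0.367 to 0.724%) and for CK 0.507% (54 of 10650, interval 0.381 to 0.661%). The differences over WT were 0.0989 percentage points in C (-0.147 to 0.330), 0.109 in K (-0.146 to 0.359) and 0.0932 in CK (-0.144 to 0.307). All 3 intervals include 0, so that a difference was not detectable with this number of cells, and they cover counting error only. With the stricter limit of 0 Cd79 UMIs, 71 cells were left, with shares of 0.121%, 0.203%, 0.305% and 0.244% for WT, C, K and CK. Per 100 T cells there were 1.65, 2.30, 2.16 and 1.77 pDC-like cells, in that order. Shares depend on the purity of the sort and on cells lost before loading, which were not measured per library.

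**Figure D5:**
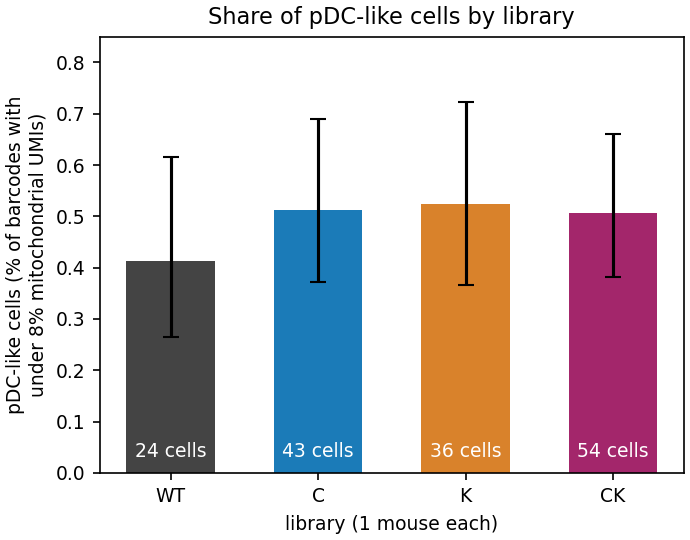
Share of pDC-like cells among barcodes under 8% mitochondrial UMIs in each library, in percent, with exact 95% intervals of counting error. The 4 shares lie between 0.414% and 0.523% with overlapping intervals.

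Within pDC-like cells, levels in C, K and CK were set against WT as log2 ratios of CPM, with 95% intervals of counting error. The 3 comparisons share the WT library, and a gene with 0 UMIs in 1 library was set at 3 counts there. Counting genes whose UMIs in both libraries came to 20 or more, 72 of 2004 (3.59%) were past 2-fold up and 54 (2.69%) past 2-fold down in C, 48 of 1871 (2.57%) and 135 (7.22%) in K, and 71 of 2133 (3.33%) and 70 (3.28%) in CK. Most of these genes had few UMIs, since at 50 UMIs or more only 8 and 6 were left in C, 6 and 15 in K and 8 and 5 in CK. With this depth a list of single genes says little of a genotype, and the genes below are those with the most extreme ratios whose intervals leave out 0.

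Cd8b1 (chr6:71322788-71337494), the beta chain of CD8, had the highest ratio in each of the 3 mutant libraries. It was at 72.6 CPM in WT and 624, 387 and 587 CPM in C, K and CK, from 8, 88, 56 and 93 UMIs. The log2 ratio over WT was 3.11 (2.06 to 4.36) for C, 2.42 (1.34 to 3.70) for K and 3.02 (1.98 to 4.27) for CK, and in T cells of the same libraries it was 0.22, 0.14 and 0.01. A Cd8b1 UMI was found in 5 of 24 WT cells, 27 of 43 C cells, 20 of 36 K cells and 28 of 54 CK cells, and at equal depth in 8.33%, 53.7%, 45.7% and 46.0% of cells. For Cd8a the shares at equal depth were 8.33%, 17.1%, 17.1% and 20%. WT was thus the library with low Cd8b1, and as it is 1 mouse, genotype and mouse cannot be told apart.

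Ly6a, which encodes Sca-1, was at 1269.9 CPM in WT and 2888, 2157 and 2625 CPM in C, K and CK, with log2 ratios over WT of 1.19 (0.90 to 1.47) for C, 0.76 (0.47 to 1.06) for K and 1.05 (0.77 to 1.33) for CK, and of -0.39, -0.06 and 0.02 in T cells. Cd74 had ratios of 0.78 (0.69 to 0.86), 0.55 (0.46 to 0.63) and 0.71 (0.63 to 0.80), beside 0.22, -0.25 and 0.11 in T cells. For the class II list, 8 genes had 20 UMIs, and their median ratios were 0.63 in C (5 intervals above 0), 0.68 in K (6) and 0.21 in CK (3), beside -0.01, -0.01 and 0.01 over all genes. In T cells the medians were 0.23, 0.01 and 0.03. Among pDC-like cells, WT held the lowest and C the highest level of both Cd74 and Ly6a.

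The remaining genes with the highest ratios were Slpi (1.29) and Sec62 (1.28) in C, S100a13 (1.33), Sec62 (1.29) and Ppp1ca (1.24) in K, and Rer1 (1.25), Ghitm (1.24) and Lamtor2 (1.17) in CK. Lowest in C were Rsrp1 (-1.51), Grb2 (-1.08), Mrpl30 (-1.05) and Cd209a (-1.01). In K they were Gm42418 (-2.89, with -2.0 in T cells), Hnrnpdl (-2.07, with -0.65), Itga4 (-1.69, with -1.11) and Bmp2k (-1.63, with -0.81). In CK they were Fdps (-1.70), AC149090.1 (-1.26), Tpr (-1.11) and Sin3b (-1.06). These 4 genes of K thus had ratios under 0 in T cells as well, and for Gm42418 1 cell held 67 of the 147 UMIs in WT. The markers of the class had ratios near or under 0, with Tcf4 at -0.54 (-0.86 to -0.22), -0.60 (-0.92 to -0.27) and -0.17 (-0.47 to 0.12) and Irf8 at -0.40 (-0.63 to -0.18), -0.15 (-0.37 to 0.07) and -0.54 (-0.77 to -0.31).

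The targeted genes and their paralogs were 4 of 4 not called against B cells (median -0.02) and against T cells (median -0.08). Crebbp, the acetyltransferase gene, was at 63.5 CPM in WT and 78.1, 55.3 and 56.8 CPM in C, K and CK in pDC-like cells, and Kmt2d, the methyltransferase gene, at 9.07 CPM in WT and 21.3, 6.91 and 12.6 CPM in C, K and CK. Kmt2d thus rested on 1 to 3 UMIs per library. Kmt2c, the paralog of Kmt2d, was at 109 CPM in WT and 85.2, 6.91 and 88.3 CPM in C, K and CK, where the value of K is 1 UMI. Ep300, the paralog of Crebbp, was at 90.7 CPM in WT and 56.8, 62.2 and 63.1 CPM in C, K and CK. The 4 genes summed to 131 CPM in K and 272 CPM in WT in pDC-like cells. The sum was also lower in K than in WT in B cells (115 and 220 CPM) and T cells (126 and 229 CPM). Ratios of K over WT fell with transcript length over many genes (Spearman's rho -0.39 in pDC-like cells and -0.54 in T cells). The part of this relation in the sum was not tested.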

How the data were processed

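Single-cell RNA sequencing libraries were made by the authors with the Chromium Single Cell 3' kit from B220+IgD- splenic cells, which were enriched on B220 beads and then flow-sorted, with 1 mouse and 1 library for each of WT, C, K and CK. The values deposited by the authors are raw UMI counts per gene and barcode. The submitters' processing notes name Cell Ranger 3.0, mm10 and Seurat 4.0, and the file headers give Cell Ranger 3.0.2. The deposited cell table lists GC B cells only and served here to leave those barcodes out. Counting by Cell Ranger keeps uniquely mapped reads, so genes with near-identical copies are uncertain.

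Groups were those of the labels. The members, comparators and gene lists were chosen with earlier results of these data known. Counts were summed per library and class, and genes passing filterByExpr with a minimum count of 10 were tested in edgeR 4.0.16 (quasi-likelihood, TMM scaling, library as block, R 4.3.3, limma 3.58.1), with Benjamini-Hochberg adjustment over all genes tested and a threshold of 0.05. The standard error of a log2 fold change was its size divided by the square root of F. These p-values measure the spread between 4 mice of 4 genotypes. Pairing of sums by library is given by the design, since both classes come from the same library. On simulated counts, 48.3% of 87 genes changed 2-fold and 95.6% of 113 changed 4-fold were called against B cells (9677 genes), with 3.23% false among those called. Against T cells (9102 genes) it was 41.5% of 106 and 95.7% of 94, with 2.19% false. All sums were drawn from the mean profile of the comparator with a fixed dispersion and no difference between libraries. Only genes above a count limit were changed, so these rates do not cover genes near the floor or data with many changes.

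Named genes were the members of the lists, the 15 highest and the 8 lowest against both cell types by the smaller change, the 4 highest and 4 lowest of each mutant over WT with at least 40 UMIs, and the 10 most variable between cells. Shares have exact Clopper-Pearson intervals, sums exact Poisson intervals and ratios exact conditional binomial intervals, all at 95%. PCR reads were collapsed to UMIs, and the intervals and floors of 3 counts cover counting error only. Scrublet in scanpy 1.11.5 was run per library and called 2 of the 157 cells, both in CK, and doublets were kept. Alternatives covered scaling, filters, DESeq2 1.42.0, the block, each library left out, the limits of the rule, thinning, the comparator and the denominator.

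Promoter windows came from RefSeq on GRCm38.p6 and gene coordinates, by Ensembl identifier, from GENCODE vM21 on GRCm38. Python 3.11.15, numpy 2.4.6, scipy 1.17.1, pandas 2.3.3 and matplotlib 3.10.9 were used. Values of some listed genes are not reported here.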

Additional observations from a re-analysis of the deposited data

Results flagged for a closer look

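A further 3 sets of barcodes outside the counted cells also held at least 2 Siglech UMIs, a signal in barcodes that no comparison above used. The first set was left out for more than 2 Cd79 UMIs and held 24 barcodes, with a median depth of 5933 UMIs. All 24 had Bst2, Tcf4 and Irf8, and 23 had Cox6a2, while the 10 B cell markers summed to 1723 CPM in them and to 144 CPM in pDC-like cells. At least 2 different B cell markers were present in 15 of them. The second set was left out for Cd3 UMIs and held 29 barcodes, with a median depth of 4988 UMIs, of which 28 had the 3 markers. The 10 T cell markers summed to 1948 CPM there and to 97.4 CPM in pDC-like cells, and 16 barcodes held at least 2 of them. The third set met the rule but for mitochondrial UMIs of 8% or more and held 16 barcodes, with a median depth of 1998 UMIs, of which 13 had the 3 markers. Together with the 157 pDC-like cells, whose median depth was 3479 UMIs, these sets hold most of the 234 barcodes with at least 2 Siglech UMIs. Whether the first and the second set are droplets with 2 cells was not tested.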

How the results depend on the processing

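Leaving out each library in turn kept the counts of called genes within 1.5 times, at 1220 to 1351 higher and 1940 to 2019 lower against B cells and at 1162 to 1261 higher and 1442 to 1468 lower against T cells. Fitted with no replicate block (without the library term), the counts were 1382 and 2074 against B cells and 1278 and 1547 against T cells. DESeq2 called 1336 genes higher and 1539 lower than in B cells, and 1161 higher and 1088 lower than in T cells, so that against T cells the balance turned towards higher genes, for which the cause was not tested. Settings that leave fewer cells or UMIs called fewer genes. With 0 UMIs of Cd79a and Cd79b, 773 were higher than in B cells and 706 higher than in T cells. Under 5% mitochondrial UMIs, 729 were higher than in B cells, and 683 were higher and 989 lower than in T cells. After thinning to 2000 UMIs, 929 were higher and 1333 lower than in B cells, and 871 were higher than in T cells. Other settings left these counts within 1.5 times.

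With 0 UMIs of Cd79a and Cd79b, the shares of pDC-like cells became 0.121%, 0.203%, 0.305% and 0.244% for WT, C, K and CK. Under 5% mitochondrial UMIs they were 0.331%, 0.554%, 0.506% and 0.291%, in the same order. Over barcodes outside the annotation they were 0.525%, 0.678%, 0.838% and 0.806%. The main denominator includes the annotated GC B cells, which numbered 1227 of 5800 barcodes in WT, 2041 of 8387 in C, 2583 of 6881 in K and 3953 of 10650 in CK. With at least 50 UMIs, genes past 2-fold up and down numbered 8 and 6 in C, 6 and 15 in K and 8 and 5 in CK. After thinning they numbered 43 and 15 in C, 38 and 49 in K, and 46 and 31 in CK, so that the excess of lower genes in K was smaller than the 48 and 135 of all UMIs.

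Among single genes, Iglc3 against B cells turned from -0.04 to 0.014 with median-ratio scaling, to 0.0078 with DESeq2 and to 0.32 against annotated GC B cells, and ran from -0.20 to 0.024 over fits that left out 1 library. Ccr7 turned from -2.06 against B cells to 0.043 against annotated GC B cells, and Iglc2 against T cells from 1.02 to -0.59 under 5% mitochondrial UMIs. Of the values of the named genes over all settings, 22 against B cells and 24 against T cells lost their call with the direction kept, and 1283 and 1089 kept both. In at least 1 setting with fewer cells or UMIs, the calls of Cd83, Tcf12, Mki67, Iglc2, Il3ra, Tmem173, Tcf3, Cd4 and Btg2 against T cells were lost. Against B cells those of Xbp1, Manf, Cbfa2t3, Ccr7, Jun, Btg2 and Pld3 were lost in at least 1 such setting. The sums of pDC-like cells, 110243 to 158470 UMIs, set what can be seen, and genes under 5.41 CPM over the group lie below the floor.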

Other observations

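Levels in the K library varied with transcript length in pDC-like cells as in T cells. Over 902 genes with a known length, Spearman's rho between the log2 ratio of K over WT and the length of the longest transcript was -0.39 in pDC-like cells and -0.54 in T cells. It was -0.06 and -0.12 in C and -0.09 and -0.21 in CK. These are correlations across genes of the same libraries, which share the WT sums and are not independent replicates. The genes with the lowest ratios in K over WT, such as Itga4 and Bmp2k, stand beside this relation, and its part in them was not tested.

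Gm42418, a long RNA gene that overlaps ribosomal RNA, had a variance over mean of 11.3 between the pDC-like cells of WT, against 0.886 in C, 1.06 in K and 1.28 in CK after thinning. In WT, 1 cell held 28 UMIs, the median was 1, and 2 cells had 5 or more, so that the value rests on few cells.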
